A study of Mus musculus with 2 samples.

Results

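Cyp17a1, the Hsd17b family and Srd5a1 encode enzymes of the route from C21 steroids to androgens and estrogens, and their transcripts were followed here in the mouse adrenal gland. The 10 genes were taken by symbol, Cyp17a1, Hsd17b1, Hsd17b2, Hsd17b3, Hsd17b4, Hsd17b7, Hsd17b10, Hsd17b11, Hsd17b12 and Srd5a1, and all 10 were found among the 55536 annotated genes of the tables. Total RNA was sequenced after removal of ribosomal RNA, with ERCC spike-ins and 300 ng of starting RNA, from adrenal glands of B6CASTF1/J females aged 10 days. B6CASTF1/J is an F1 hybrid mouse, and no transgene, deletion or treatment is named in the labels. There was 1 group of 2 libraries, called replicate 1 and replicate 2, and no control group. The sample labels name a different female for each library, but the library descriptions repeat 1 female and the donor entry is shared, so n = 2 may or may not stand for separate animals, and p-values compare these libraries against counting error alone, and a difference between them may be technical.

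Cyp17a1 is the P450 enzyme with 17-alpha-hydroxylase and 17,20-lyase activity that opens the route to cortisol and to sex steroids. Rodent adrenals make corticosterone as the main glucocorticoid, and the adult mouse adrenal cortex is known for lacking Cyp17a1. The 17-beta-hydroxysteroid dehydrogenases interconvert 17-keto and 17-beta-hydroxy steroids, some mainly in the reductive and some mainly in the oxidative direction, but several members work chiefly on other substrates, such as fatty acyl-CoA, branched-chain amino acid intermediates or sterol precursors. Srd5a1 is a steroid 5-alpha-reductase.

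The libraries held 35636846 expected counts in replicate 1 and 33378436 in replicate 2. All 8 adrenal cortex markers and all 8 chromaffin cell markers of the medulla were detected, with summed levels of 4005 and 4374 TPM and of 1077 and 1040 TPM in replicates 1 and 2. Here TPM is the TPM unit of the deposited tables, a relative level per transcript length, and a gene is called detected at 1 TPM or more in both libraries. Markers of other tissues were also present. The 8 fat markers summed to 5511 TPM in replicate 1 and 6471 TPM in replicate 2, above the adrenal cortex markers. The part of such tissues in the levels given below was not tested. Markers of several other organs differed between the libraries. The 8 skeletal muscle markers summed to 3070 and 1024 TPM in replicates 1 and 2. The 8 hepatocyte markers summed to 5638 TPM in replicate 1 and 1092 TPM in replicate 2, and the 8 kidney tubule markers to 1.16 and 227.6 TPM. In bulk tissue, fewer cells of a type and less RNA per cell cannot be told apart.

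Sequences of 2 transcript pairs are shown because the deposited quantifications divide the reads of these genes between transcripts that part at the junction printed. Hsd17b10-201, the coding transcript, and Hsd17b10-204, annotated as a processed transcript, join different sequence to the same exon 2, whose first 30 bases are in capitals. The lower-case part of the first is the coding part of exon 1 from the start codon (chrX:152001908-152001934), and that of the second is the end of intron 1. Exon 2 is shown at chrX:152002278-152002307, plus strand, mm10.
Hsd17b10-201: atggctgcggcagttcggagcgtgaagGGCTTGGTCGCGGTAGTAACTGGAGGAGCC
Hsd17b10-204: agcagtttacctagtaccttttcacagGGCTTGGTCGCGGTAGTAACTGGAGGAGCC
Cyp17a1-201 and Cyp17a1-204 part after exon 7, whose last 30 bases (chr19:46668014-46668043, minus strand, mm10) are in capitals. Cyp17a1-201 goes on into exon 8, while Cyp17a1-204 retains the intron of 405 bases at chr19:46667609-46668013. Their full lengths, 1815 and 2403 bases, differ by more than this intron, so reads outside it can also separate them.
Cyp17a1-201: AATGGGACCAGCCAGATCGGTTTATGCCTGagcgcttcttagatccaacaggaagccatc
Cyp17a1-204: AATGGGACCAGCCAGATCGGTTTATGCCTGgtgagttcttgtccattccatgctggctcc

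The highest of the 10 genes were members that also serve lipid or amino acid metabolism, and the lowest were gonadal sex steroid enzymes. Hsd17b10, Hsd17b4 and Hsd17b12 stood at 76.4 ± 4.58, 71.0 ± 9.22 and 53.6 ± 5.40 TPM (mean ± SD, n = 2), whereas Hsd17b1 and Hsd17b3 stood at 0.280 ± 0.085 and 0.085 ± 0.049 TPM. By the deposited posterior mean TPM this lowest pair was closer, at 0.29 for Hsd17b1 and 0.255 for Hsd17b3. Of the 10 genes, 7 were detected, and Cyp17a1, Hsd17b1 and Hsd17b3 were not. For Cyp17a1 this depended on the cut-off, since it passed 1 TPM in replicate 2 alone. With at least 10 counts in both libraries as the limit, 8 were detected, Cyp17a1 among them. Over all annotated genes 14179 were detected (25.5%), and over the 22028 protein-coding genes 12813 were (58.2%). With 1 group and 2 libraries, levels carry no test, since sign flips over 2 libraries cannot give an exact two-sided p below 0.5.

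**Figure D1:**
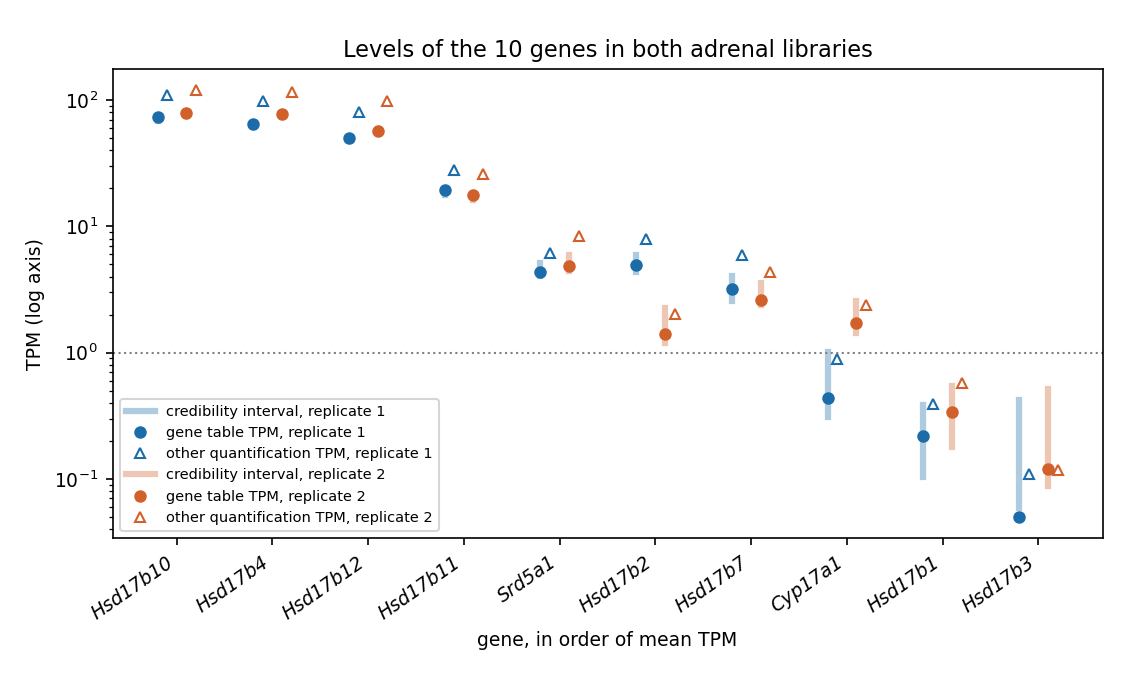
Level of each of the 10 genes (TPM, log axis) in both libraries, in order of mean TPM; filled points are the gene table, bars its deposited credibility intervals, triangles the other quantification, and the dotted line the detection level of 1 TPM. Hsd17b10, Hsd17b4 and Hsd17b12 lie at 49.8 to 79.7 TPM in the gene table, and Hsd17b1 and Hsd17b3 lie below 1 TPM in every estimate.

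The order by mean TPM was Hsd17b10, Hsd17b4, Hsd17b12, Hsd17b11, Srd5a1, Hsd17b2, Hsd17b7, Cyp17a1, Hsd17b1 and Hsd17b3. Neighbours were called apart when their log2 difference had 1 sign in both libraries and its mean exceeded its SD, and 7 of the 9 neighbouring pairs were. The order and the differences came from the same TPM values, so a positive difference is largely built in and this is no test. Srd5a1 and Hsd17b2 were not apart, and neither were Hsd17b2 and Hsd17b7, with Hsd17b2 at 4.97 TPM in replicate 1 and 1.41 TPM in replicate 2. Hsd17b10 exceeded Hsd17b4 by a log2 difference of only 0.11 ± 0.10 in TPM, and Hsd17b7 exceeded Cyp17a1 by 1.73 ± 1.59. The deposited credibility intervals of Hsd17b10 and Hsd17b4 overlapped in replicate 2, at 74.9 to 81.5 and 74.3 to 78.8 TPM, but not in replicate 1.

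To ask which of the 10 genes differed between the libraries beyond counting error, an exact two-sided binomial test on scaled counts was run over 18883 genes with a summed count of 20 or more. A gene was called at a Benjamini-Hochberg adjusted p under 0.05 and at least 2-fold. Of the 9 members tested 2 were called, Hsd17b2 higher in replicate 1 and Cyp17a1 higher in replicate 2. Over all genes tested 1294 were called, which is 6.85%, with 4.11% higher in replicate 1 and 2.74% higher in replicate 2. The median log2 ratio of the 9 members, replicate 2 over replicate 1, was 0.19, beside -0.01 over all genes tested. The test compares 2 libraries, not conditions.

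Cyp17a1 (chromosome 19, 46667165 to 46673172, minus strand) had 21 expected counts in replicate 1 and 84 in replicate 2. Its level was 0.44 TPM in replicate 1, with a deposited credibility interval of 0.31 to 1.02, and 1.71 TPM in replicate 2, with an interval of 1.42 to 2.55. The intervals did not overlap, and replicate 2 alone passed 1 TPM. The scaled count was 4.46-fold higher in replicate 2 (95% Clopper-Pearson interval 2.74 to 7.57, exact binomial, adjusted p = 1.38e-10). The other quantification gave 0.88 and 2.39 TPM, in the same direction.

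Kidney tubule markers moved the same way as Cyp17a1, with 8 of 8 called higher in replicate 2 and log2 ratios of 5.03 to 9.87. Their part in the Cyp17a1 difference was not tested. None of the gonadal markers tested was called, and a gonadal part in the Cyp17a1 difference was not tested. Of 6 Leydig cell and testis markers 5 could be tested and 0 were called, with summed levels of 17.8 and 16.01 TPM, of which Hsd3b6, also a gene of the corticoid route list, made up 12.3 and 11.5 TPM. Of 8 ovary markers 3 could be tested and 0 were called, with summed levels of 16.6 and 18.8 TPM, of which the inhibin subunit Inha made up 15.65 and 17.9 TPM. Amh and Gdf9, also tested, had only 14 and 13 and 13 and 7 expected counts in replicates 1 and 2. Foxl2 and Fshr, defining genes of ovarian granulosa cells, had 0 counts in both libraries and both quantifications, while Cyp19a1 had 0 counts in the first and 3.09 and 7.74 in the other. Within the lists, Insl3, taken here as a Leydig cell marker, was at 3.58 and 2.98 TPM in these libraries from females.

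Even in replicate 2, Cyp17a1 lay far under the enzymes around it. Por, the reductase that feeds electrons to Cyp17a1, was at 57.8 and 59.1 TPM, and Cyb5a, the cytochrome b5 that favours its lyase reaction, at 77.0 and 68.5 TPM. Cyp21a1, the 21-hydroxylase of the corticosterone route, was at 818 and 844 TPM, a log2 difference from Cyp17a1 of 9.90 ± 1.35 (SD, n = 2) in TPM. All 9 genes of the corticoid route were detected and 0 were called between the libraries, with a median log2 ratio of 0.10. The highest of them were Hsd3b1 at 1440 ± 22.5 TPM, Cyp21a1 at 831 ± 18.7 TPM and Star, the cholesterol carrier into mitochondria, at 698 ± 179 TPM.

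Of the 2 coding transcripts, Cyp17a1-201 held 59.0% of the gene's TPM in replicate 1 and 83.9% in replicate 2. Cyp17a1-204, with the retained intron shown above, held 11.1% and 3.30%, from 3.80 and 4.06 expected counts. Cyp17a1-202, annotated as a retained intron, held 29.9% and 12.8%, and 39.3% and 0.19% in the other quantification. At so few counts the shares are coarse. In the other quantification Cyp17a1-204 held 10.9% and 14.6%, so the direction of its change between libraries differed between the quantifications.

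Among the mainly reductive enzymes, Hsd17b1, which makes estradiol in ovary and placenta, had 9 and 13 expected counts in replicates 1 and 2 (chromosome 11, 101078411 to 101080527, plus strand). That is 0.22 and 0.34 TPM, with overlapping credibility intervals and an adjusted p of 0.51 in the exact binomial test. Hsd17b3, the testis enzyme that makes testosterone (chromosome 13, 64058266 to 64089230, minus strand), had 1 and 2 expected counts, or 0.05 and 0.12 TPM. Neither library exceeds the upper limit for an unseen gene, 3 counts, so no ratio is given. The credibility interval in replicate 1, 0.06 to 0.42 TPM, lies above the deposited TPM itself.

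Hsd17b12, the 3-ketoacyl-CoA reductase of fatty acid elongation (chromosome 2, 94032689 to 94157964, minus strand), stood at 49.8 and 57.4 TPM in replicates 1 and 2, from 2994 and 3218 expected counts. Replicate 2 was higher by a log2 ratio of 0.26, beyond counting error (exact binomial, adjusted p = 1.88e-11) but under the 2-fold limit. The 12 genes of the elongation list had medians of 11.5 and 15.3 TPM, and the 3 highest stood nearest to Hsd17b12. Tecr, the last reductase of the cycle, was at 111 and 104 TPM, Elovl5, an elongase of polyunsaturated fatty acids, at 62.5 and 62.6 TPM, and Hacd3, a dehydratase, at 49.7 and 45.5 TPM. Tecr exceeded Hsd17b12 by a log2 difference of 1.00 ± 0.21 in TPM, while the difference between Hsd17b12 and Hacd3, 0.17 ± 0.24, was within its spread. In the other quantification the difference between Hsd17b12 and Hacd3 was 0.43 ± 0.29, beyond its spread.

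Of the 12 elongation genes 1 was called higher in each direction, and their median log2 ratio was 0.01. Elovl2, an elongase of very long polyunsaturated fatty acids, was at 10.3 and 4.19 TPM and was 2.39-fold higher in replicate 1 (exact binomial, adjusted p = 2.16e-65). Elovl7 was at 0.79 and 2.34 TPM and was 3.17-fold higher in replicate 2 (exact binomial, adjusted p = 1.03e-20). The log2 ratio of Hsd17b12, 0.26, lay between those of Elovl2, -1.26, and Elovl7, 1.66.

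Hsd17b7, which reduces estrone and also acts as the 3-ketosteroid reductase of cholesterol synthesis, was at 3.18 and 2.60 TPM in replicates 1 and 2 (chromosome 1, 169949535 to 169969241, minus strand). Its 333 and 296 expected counts gave a log2 ratio of -0.01 and an adjusted p of 0.98 in the exact binomial test. The 8 other genes of synthesis after lanosterol were all detected, with 0 called and a median log2 ratio of 0.15. Dhcr7, a sterol reductase, was at 52.5 ± 15.4 TPM, and Ebp, a sterol isomerase, at 13.6 ± 0.21 TPM. Nsdhl, the decarboxylating dehydrogenase one step before Hsd17b7, exceeded it by a log2 difference of 1.52 ± 0.35 in TPM.

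Transcript shares of Hsd17b7 differed between the libraries. Coding transcript Hsd17b7-201 held 64.3% and 72.5% of the gene's TPM, but coding transcript Hsd17b7-202 went from 0% in replicate 1 to 27.5% in replicate 2, and the processed transcripts Hsd17b7-203 and Hsd17b7-204 from 22.9% and 12.8% to 0%. The other quantification also listed Hsd17b7-202 at 0 in replicate 1 and gave it 13.9% in replicate 2. It left Hsd17b7-203 at 40.0% and 22.5%. These shifts rest on few reads in the first quantification. Hsd17b7-202 had 0 and 30.1 expected counts, Hsd17b7-203 had 12.1 and 0, and Hsd17b7-204 had 9.72 and 0. For each of these transcripts the deposited credibility intervals of the libraries overlapped, so the shares are coarse.

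Among the mainly oxidative enzymes, Hsd17b2 inactivates estradiol and testosterone and is known from liver, intestine and placenta (chromosome 8, 117701904 to 117759027, plus strand). It had 203 expected counts in replicate 1 and 54 in replicate 2, or 4.97 and 1.41 TPM. The scaled count was 3.37-fold higher in replicate 1 (95% Clopper-Pearson interval 2.49 to 4.64, exact binomial, adjusted p = 5.88e-17). The deposited credibility intervals, 4.38 to 5.93 and 1.20 to 2.26 TPM, did not overlap. In the other quantification the levels were 7.93 and 2.02 TPM.

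All 8 hepatocyte markers were called higher in replicate 1 as well, with log2 ratios of -2.47 to -2.03 beside -1.74 for Hsd17b2. Several other marker lists leaned the same way, with 6 of 8 skeletal muscle markers, 3 of 6 lymphocyte markers and 3 of 6 erythroid markers called higher in replicate 1, and 1 skeletal muscle marker called higher in replicate 2. Their part in the Hsd17b2 difference was not tested. Of the adrenal cortex, X-zone, chromaffin and fat markers 0 were called.

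Hsd17b4, the multifunctional enzyme of peroxisomal beta-oxidation (chromosome 18, 50128201 to 50196269, plus strand), had 5497 and 6110 expected counts, the most of the 10 genes. The level stood at 64.4 and 77.5 TPM in replicates 1 and 2, a log2 ratio of 0.31 in scaled counts (exact binomial, adjusted p = 3.44e-29), under the 2-fold limit. Scp2, the thiolase and sterol carrier that acts after it, was at 147 ± 0.86 TPM and exceeded it by a log2 difference of 1.06 ± 0.18. The gap was wider in the other quantification, where the log2 difference of Hsd17b4 from Scp2 was -1.66 ± 0.20. Abcd3, a peroxisomal fatty acid transporter, was at 61.1 ± 6.68 TPM. Ehhadh, the other bifunctional enzyme, was below Hsd17b4 by a log2 difference of 0.88 ± 0.34 in TPM.

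All 10 genes of the peroxisomal list were detected, with a median log2 ratio of 0.11 between libraries. Only Acox2, the oxidase of branched acyl-CoA and bile acid intermediates, was called among them, at 5.27 and 2.35 TPM and 2.23-fold higher in replicate 1 (exact binomial, adjusted p = 9.50e-14). A single transcript, Hsd17b4-201, held 97.6% and 97.0% of the Hsd17b4 level.

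Hsd17b10 is a mitochondrial enzyme of isoleucine breakdown and a subunit of mitochondrial RNase P, which cuts tRNAs from their precursors (chromosome X, 152001845 to 152004442, plus strand). It stood at 73.2 and 79.7 TPM in replicates 1 and 2, from 2130 and 2153 expected counts. The log2 ratio of 0.17 lay beyond counting error (exact binomial, adjusted p = 6.74e-04) and under the 2-fold limit. The other RNase P subunits were much lower. Trmt10c, the methyltransferase subunit, was at 6.01 and 5.97 TPM, and 1110008L16Rik, which RefSeq (GRCm38.p6) names Prorp, the nuclease subunit, at 5.53 and 5.22 TPM. Hsd17b10 exceeded Trmt10c by a log2 difference of 3.67 ± 0.09 and the nuclease by 3.83 ± 0.15 in TPM.

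Genes of isoleucine breakdown were nearer to it. Acadsb, the dehydrogenase of short branched acyl-CoA, was at 62.8 and 72.1 TPM, below Hsd17b10 by a log2 difference of 0.18 ± 0.05. The highest of this list were Echs1, the enoyl-CoA hydratase, at 212 ± 14.7 TPM, Acat1, the thiolase, at 122 ± 1.51 TPM and Bckdha, a subunit of the branched-chain keto acid dehydrogenase, at 89.4 ± 8.64 TPM. All 9 genes found of the list were detected, 0 were called, and their median log2 ratio was 0.17.

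The 2 quantifications disagreed on which Hsd17b10 transcript carried the level. Coding transcript Hsd17b10-201 held 93.7% and 93.1% of the gene's TPM in the first, and the processed transcript Hsd17b10-204 held 5.17% and 5.43%. In the other, Hsd17b10-204 held 64.7% and 75.3%, at 71.6 and 90.2 TPM, and Hsd17b10-201 held 34.4% and 23.5%. These 2 transcripts share 872 identical bases. Between the 2, only 90 bases of exon 1 (chrX:152001845-152001934) set Hsd17b10-201 apart, and 129 bases of intron 1 (chrX:152002149-152002277) set Hsd17b10-204 apart. The other coding transcript, Hsd17b10-202, has the same exon 1 as Hsd17b10-201. The gene totals were 2130 and 2153 counts in the first quantification and 2024 and 2057 in the other.

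**Figure D2:**
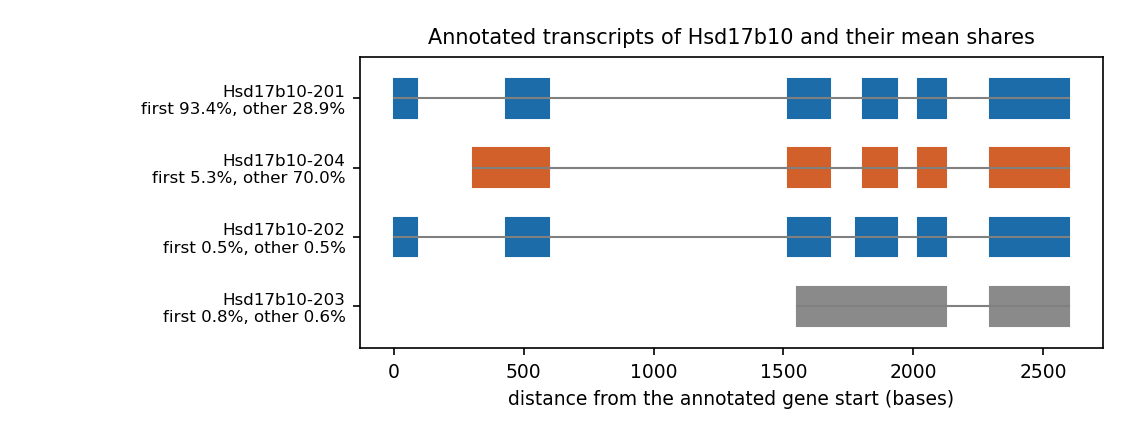
Exons (boxes) of the 4 annotated Hsd17b10 transcripts by distance from the gene start in bases, blue for protein-coding, orange for processed transcript and grey for retained intron, with the mean share of gene TPM over both libraries in each quantification. Hsd17b10-201 and Hsd17b10-204 differ in their first exon, and their mean shares are 93.4% and 5.30% in the first quantification and 28.9% and 70.0% in the other.

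Over the 10 genes, 35 transcripts are annotated, and Hsd17b10 was the exception among the leading ones: the transcript with the highest mean share was the same in both quantifications for 9 of 10. Smaller shares also shifted. Processed transcript Hsd17b12-205 was listed at 0 in the first quantification and at 7.82 and 15.8 TPM in the other, and Srd5a1-203 at 0 and at 0.64 and 2.45 TPM. The cause was not tested.

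**Figure D3:**
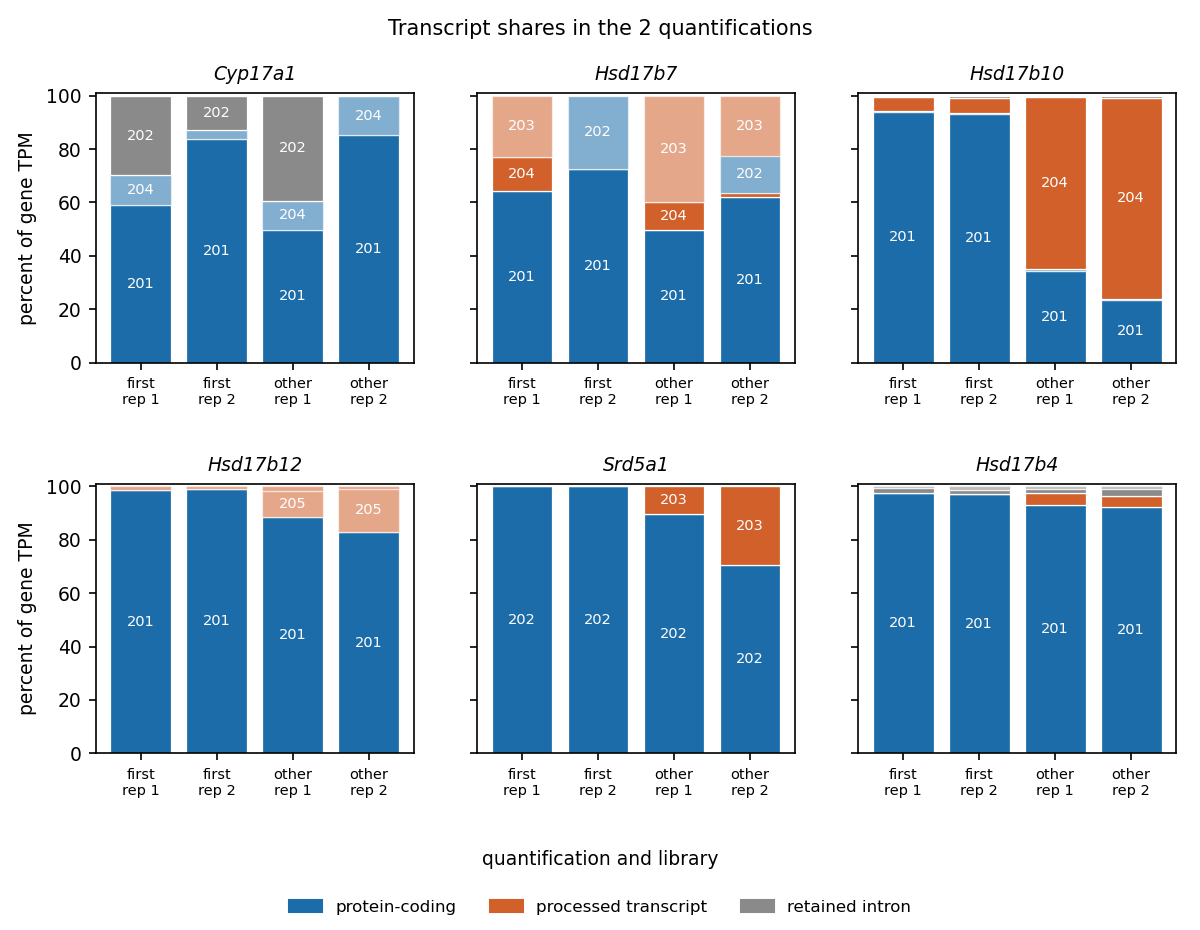
Share of gene TPM (percent) held by each transcript of 6 genes in both libraries (rep 1, rep 2) and both quantifications (first, other); colours give the annotated type, lighter shades mark further transcripts of that type, and numbers inside bars are the transcript's suffix. The Hsd17b10 bars change from mainly coding transcript 201 in the first quantification to mainly processed transcript 204 in the other, and the Hsd17b4 bars stay mainly coding.

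Hsd17b11, a lipid droplet enzyme that oxidises androgen metabolites (chromosome 5, 103989762 to 104021919, minus strand), stood at 19.3 and 17.7 TPM in replicates 1 and 2. Its 1132 and 963 expected counts gave a log2 ratio of -0.08 and an adjusted p of 0.43 in the exact binomial test. The 8 lipid droplet genes were all detected, 0 were called, and their median log2 ratio was 0.08. Pnpla2, the triglyceride lipase, at 433 ± 60.5 TPM, Plin1, the adipocyte droplet coat, at 305 ± 1.94 TPM and Cidec, a droplet fusion protein, at 141 ± 13.8 TPM were the highest of them. Plin2, the droplet coat of many cell types, exceeded Hsd17b11 by a log2 difference of 2.43 ± 0.11 in TPM. The fat marker list summed to 5511 and 6471 TPM, with 8 of 8 markers detected, and its part in these levels was not tested.

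**Figure D4:**
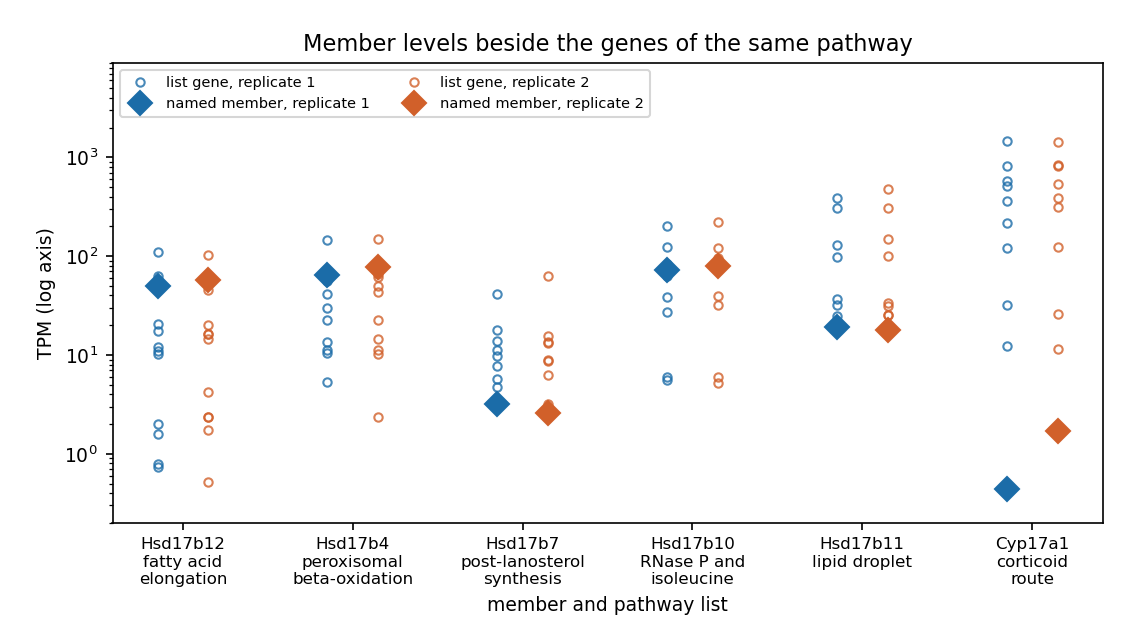
Levels (TPM, log axis) of 6 of the genes (diamonds) beside the genes of the pathway list each was set against (open circles), in replicate 1 and replicate 2. Cyp17a1, at 0.44 and 1.71 TPM, lies below every gene of the corticoid route. Hsd17b7, at 3.18 and 2.60 TPM, and Hsd17b11, at 19.3 and 17.7 TPM, also lie below every gene of their lists, while Hsd17b12, Hsd17b4 and Hsd17b10 lie within range.

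By the textbook direction of the reaction, the mainly oxidative Hsd17b2, Hsd17b4, Hsd17b10 and Hsd17b11 held 74.9% ± 0.57 (SD, n = 2) of the summed TPM of the 8 Hsd17b members, and the mainly reductive Hsd17b1, Hsd17b3, Hsd17b7 and Hsd17b12 held 25.1% ± 0.57. Hsd17b4 and Hsd17b10 alone held 31.3% and 33.8% on average, and Hsd17b12 held 23.7%. These also serve lipid or amino acid metabolism, so the split does not measure a balance of steroid conversion. Hsd17b4, Hsd17b10 and Hsd17b12 together held 87.1% of this sum in replicate 1 and 90.6% in replicate 2. The sum depends on the symbols listed and leaves out the further dehydrogenases given below. The highest of those, H2-Ke6, was at 60.8 and 68.4 TPM, above Hsd17b12 at 49.8 and 57.4 TPM. The gonadal pair Hsd17b1 and Hsd17b3 held 0.13% and 0.19%.

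Srd5a1, which makes 5-alpha-reduced androgens and corticoids (chromosome 13, 69573449 to 69611442, minus strand), was at 4.39 and 4.82 TPM in replicates 1 and 2. Its log2 ratio of 0.19 did not pass the exact binomial test (adjusted p = 0.20), whereas the other quantification gave 0.27 with an adjusted p of 0.049, under the 2-fold limit. Its exons overlap those of Gm17108 on the same strand, a gene at 0.07 and 0.01 TPM. Srd5a2, the isoenzyme best known from the male reproductive tract, was higher in both libraries, at 11.8 and 10.5 TPM, a log2 difference of 1.27 ± 0.21 in TPM.

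Among the other genes of sex steroid handling, 11 of 12 symbols were found, 8 were detected, and 0 of the 8 tested were called, with a median log2 ratio of 0.05. Akr1c18, the 20-alpha-hydroxysteroid dehydrogenase of the X-zone, led at 159 ± 34.0 TPM, followed by Cyb5a at 72.8 ± 5.95 TPM and Por at 58.4 ± 0.95 TPM. Aromatase, Cyp19a1, had 0 counts in both libraries in the first quantification, but not in the other, as given above.

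The 5 further genes with 17-beta-hydroxysteroid dehydrogenase names or activity included 4 that were called between the libraries, beside 6.85% of all genes tested. H2-Ke6, the mitochondrial fatty acid synthesis enzyme also named Hsd17b8, was at 60.8 and 68.4 TPM and was not called. Hsd17b13, a lipid droplet protein of liver, was at 19.6 and 3.94 TPM, 4.81-fold higher in replicate 1 (exact binomial, adjusted p = 2.10e-91). Akr1c6, also named Hsd17b5, was at 9.72 and 2.28 TPM, 4.25-fold higher in replicate 1 (exact binomial, adjusted p = 3.76e-42).

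Hsd17b6 was at 3.14 and 0.45 TPM, 6.19-fold higher in replicate 1 (exact binomial, adjusted p = 4.29e-19). Hsd17b14 was at 0.47 and 0.57 TPM, and its 8 and 20 expected counts put it 2.79-fold higher in replicate 2 (exact binomial, adjusted p = 0.049). That call was lost in the other quantification, at 1.70-fold (exact binomial, adjusted p = 0.27), where the 3 other calls held. So 3 of the 5 were called higher in replicate 1 and 1 higher in replicate 2, beside 4.11% and 2.74% of all genes tested. Replicate 1 was also the side of all 8 hepatocyte markers, 6 of 8 skeletal muscle, 3 of 6 lymphocyte and 3 of 6 erythroid markers. In replicate 2, 1 skeletal muscle marker and all 8 kidney tubule markers were higher. The part of the marker lists in these differences was not tested. Hsd17b11 and its paralogue Hsd17b13 were at almost equal levels in replicate 1, 19.3 and 19.6 TPM, and apart in replicate 2, 17.7 and 3.94 TPM.

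**Figure D5:**
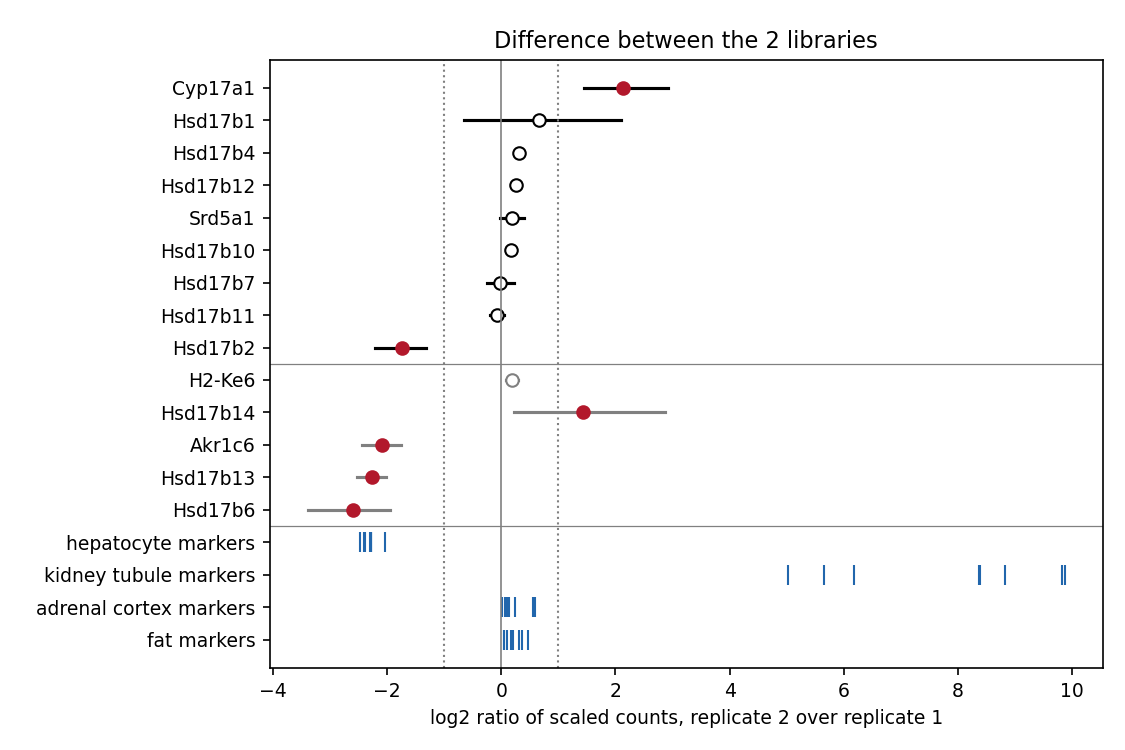
Log2 ratio of scaled counts, replicate 2 over replicate 1, for the 9 members tested (top), 5 further dehydrogenases (middle) and the genes of 4 marker lists (ticks, bottom); bars are 95% Clopper-Pearson intervals, filled red points passed the threshold, and dotted lines mark 2-fold. Cyp17a1 lies at 2.13 and Hsd17b2 at -1.74, the 7 other members lie within 2-fold, and the hepatocyte ticks lie from -2.47 to -2.03.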

How the data were processed

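The 2 libraries of 1 group were compared, with 35636846 and 33378436 expected counts in replicates 1 and 2. The authors deposited expected counts, TPM, FPKM and TPM credibility bounds (the signal columns) per gene and transcript, the percent of gene TPM per transcript, and a second transcript table with estimated counts and TPM, summed here per gene. Per the file headers and deposited notes, build mm10 and annotation M21 were used; the sources used here do not give the aligner, the quantifiers or their versions. Sequences were read from the GENCODE M21 transcripts.

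Expected counts were rounded and scaled by TMM over all annotated genes, spike-ins left out of library sizes (edgeR 4.0.16, R 4.3.3). Genes whose counts summed to 20 or more entered an exact two-sided binomial test (scipy 1.17.1) with Benjamini-Hochberg adjustment, called at 0.05 and at least 2-fold, with a prior count of 0.5 in log2 ratios and 95% Clopper-Pearson intervals, which cover counting error only. DESeq2 1.42.0 gave alternative size factors. The scripts were tested on simulated counts drawn with counting error alone. That simulation cannot show how often genes are called at the spread of these 2 libraries. TMM factors from genes past the count minimum were also tried, as an alternative chosen after seeing the data.

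The members and lists were chosen with earlier results of these data known. Named genes are all 10 members, each pathway list's called genes and 3 highest, all further Hsd17b genes, and genes sharing exons with a member, of which some are not reported here; partner genes (Nsdhl, Hacd3, Ehhadh, Trmt10c, 1110008L16Rik, Acadsb, Plin2, Srd5a2), the transcripts and the grouping by reaction direction were chosen after values were seen. A planned comparison of protein sequences was not run, and proteins are not used here.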

Additional observations from a re-analysis of the deposited data

How the results depend on the processing

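Without the 2-fold limit 5 members and 5007 genes were called, and with a minimum summed count of 100 there were 802 genes, where fewer genes were tested. In every other alternative 2 members were called: total count, DESeq2 and ERCC scaling, no minimum count, the other quantification, and TMM factors from genes past the count minimum, an alternative chosen after seeing the data that called 1284 genes instead of 1294. ERCC scaling turned the log2 ratio of Hsd17b7 to 0.00069, and no other log2 ratio of a member changed sign or call. No scaling moved the median of all genes by over 0.1. Mean TPM was 1.34 to 1.79 times higher in the other quantification for the members, beside a median of 1.51 times over 12808 detected protein-coding genes, and TPM rescaled over protein-coding genes, which hold 40.3% and 39.8% of all TPM, is higher by construction. The posterior mean TPM of Hsd17b3 was 0.255 against 0.085, and that of no other member moved beyond its SD. Srd5a1 passed an adjusted p of 0.05 in the other quantification (0.049). From 5 to 7 neighbouring pairs were apart in the order, and 7 or 8 members were detected, Cyp17a1 being the gene that changed. Leaving out a library leaves no spread, so the order was not rerun in that way. No paired analysis was possible because there is 1 group. Low counts limit Cyp17a1, Hsd17b1 and Hsd17b3.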
